A study of Homo sapiens with 18 samples.

Results

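The 38 genes described here encode proteins of synaptic vesicles and their release sites, of the neuronal cytoskeleton and of neuroendocrine secretion, together with the repressor REST and its cofactor RCOR1. They were chosen by function and with the TSA libraries first in view, so their level differences after TSA are a description of what chose them. No p-value is given for these differences, and counts of members past the threshold after TSA support nothing. All 38 were found among the 30727 genes of the count table, and 31 of them had enough reads to be among the 17641 genes tested. The members were ENO2, SYP, SYT1, SYT4, SYT7, SYT11, SNAP25, VAMP2, STX1A, CPLX1, CPLX2, RAB3A, RIMS2, BSN, SYN1, SYN2, SV2A, MAP1A, MAP1B, MAP2, MAPT, TPPP, STMN2, STMN3, STMN4, NEFL, NEFM, CHGA, CHGB, SCG2, SCG5, UCHL1, GAP43, DPYSL3, CRMP1, EFR3B, REST and RCOR1.

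The cells were PC9, an established human lung adenocarcinoma line that depends on the kinase EGFR, and their RNA was sequenced in 18 libraries forming 6 groups of 3. DTP_TSA were drug-tolerant persister cells, which had survived 1 µM erlotinib, an inhibitor of EGFR, for 8 days, and which then received trichostatin A (TSA), an inhibitor of histone deacetylases, at 50 nM for 5 hours. DTP were persister cells after the same 8 days in 1 µM erlotinib, without TSA. The group parental_TSA had 50 nM TSA for 5 hours, erlotinib_24h had 1 µM erlotinib for 24 hours, carboplatin_72h had 50 µM of the DNA-crosslinking drug carboplatin for 72 hours, and parental_DMSO had only the solvent. All groups came from the same line, grown in medium with 10% serum. The labels name the replicates a, b and c and give no separate cultures, and p-values therefore cover variation among these libraries, which may be technical. Sorting for ALDH activity appears in the treatment text of the DTP samples but in no title. No group was a neuron or a neuroendocrine cell.

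Libraries held 32139343 to 128293531 gene reads. DTP_TSA a stood apart: ERCC spike-in RNA, a synthetic mix added by cell number, made up 50.0% of its gene plus spike-in reads, whereas in the other 17 libraries there were 0.321 to 0.786 spike-in reads per 100 gene reads. SYP, SYN2, SV2A, DPYSL3 and CHGA had 0 reads in that library and had reads in DTP_TSA b and c. Levels are CPM of gene reads (counts scaled to a common library total) after TMM scaling, which assumes that most genes do not differ between libraries. Scaling to spike-ins instead, without DTP_TSA a, moved the median log2 difference of all genes tested to 0.16 for DTP, -0.23 for erlotinib_24h and 0.72 for carboplatin_72h, each against parental_DMSO. It was 0.48 for DTP against erlotinib_24h and -1.03 for erlotinib_24h against carboplatin_72h. With TSA it was 0.11 in persisters and 0.07 in parental cells. Splits scaled to spike-ins below include this shift of all genes, and no share of all genes called is given for that scaling. Summed markers of lung epithelium lay between 4330 and 9700 CPM in every library, with 10 of 11 markers tested. Of 11 neuron markers 3 were tested, TUBB3, SLC17A7 and GAD1. ELAVL4, SLC17A6, SLC32A1, GAD2, NEUROD2 and NEUROD6 each had under 10 reads in all. The summed level was 73.8 to 104 CPM in DTP_TSA, 44.6 to 48.0 CPM in DTP and 32.4 to 42.3 CPM in parental_TSA. It was 11.2 to 13.2 CPM in erlotinib_24h, 32.2 to 47.1 CPM in carboplatin_72h and 11.4 to 13.1 CPM in parental_DMSO. Most of this sum was TUBB3 in every group, with means of 77.5 CPM in DTP_TSA, 40.4 CPM in DTP and 9.42 CPM in parental_DMSO. SLC17A7 averaged 2.67 CPM in DTP_TSA and 0.339 CPM in DTP, and GAD1 4.48 and 5.69 CPM. The sum therefore describes mainly TUBB3, not neuron markers as a set. Of 10 markers of pulmonary neuroendocrine cells, 2 of them members (SYP and CHGA), 3 were tested; INSM1 had no read, and the sum was 0.234 to 2.06 CPM. The part of these marker levels in the results was not tested. Since these are bulk samples, more cells with a gene's RNA and more RNA per cell cannot be told apart.

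In neurons, synaptic vesicles are loaded with transmitter, tethered at the release site by RAB3A, RIM proteins and Bassoon, and fused with the plasma membrane by the SNARE proteins VAMP2, SNAP25 and syntaxin 1A under the control of complexins and of synaptotagmins, which sense calcium or regulate vesicle traffic. Microtubule-associated proteins and stathmins shape the neuronal cytoskeleton, and granins are packed into dense-core granules. REST is a zinc finger repressor that binds the RE1 element of many neuronal genes and keeps them low outside neurons, with RCOR1 (CoREST) bridging it to the histone deacetylases HDAC1 and HDAC2 and the demethylase KDM1A. Trichostatin A inhibits those deacetylases among others.

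Of the 7 members that were not tested, SYT4, a vesicle synaptotagmin, had no read in any library. NEFL and NEFM, subunits of the neurofilament, had 2 and 3 reads over the 18 libraries, CHGB, a granin, had 2, and STMN2, a neuronal stathmin, had 7. GAP43, a growth cone protein, had 30 reads in all and 7 at most in a library. SYN1, a synapsin that coats synaptic vesicles, had 54 reads in all and at most 8 in a library, with 9 reads in DTP_TSA and 2 in DTP, 5 in parental_TSA, 5 in erlotinib_24h, 21 in carboplatin_72h and 12 in parental_DMSO. At this depth no difference in these genes was given a test.

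Promoters of 27 members were in the RefSeq table on GRCh38.p14, as 38 windows of 300 bases from 250 bases before to 50 bases after a start site, some of which overlap. They were searched on both strands for the RE1 element as its left arm TTCAGCACC and its right arm GGACAGNGC, also in order with 2 bases between them. Both arms stood in that order in 3 of all 35116 promoters (0.00854%), of which 1 was a member's, SYN1, whose element began 233 bases before the start. The left arm by itself was in 132 promoters (0.376%), of members in SYN1 only, and the right arm by itself was in 815 (2.32%), of members in SYN1 and in BSN, 121 bases before the start. With 1 mismatch allowed per arm, the left arm was in 4 of 38 member promoters and 7.68% of all, and the right arm was in 16 of 38 and 36.0% of all. SYN1 and BSN are shown for these matches, and ENO2, RAB3A and TPPP for their large level differences after TSA without an exact match in the window; capitals mark an exact arm, or both arms with the bases between them, and lower case the rest. A match is a run of letters, not a measured binding site.
SYN1, chrX:47619808-47620107, minus strand: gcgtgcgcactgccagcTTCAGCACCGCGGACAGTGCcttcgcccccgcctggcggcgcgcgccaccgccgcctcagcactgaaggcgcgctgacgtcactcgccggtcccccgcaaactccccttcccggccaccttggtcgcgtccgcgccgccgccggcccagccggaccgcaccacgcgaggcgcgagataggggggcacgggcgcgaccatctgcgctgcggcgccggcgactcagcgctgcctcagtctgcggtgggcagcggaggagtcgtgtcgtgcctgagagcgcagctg
BSN, chr3:49554227-49554526, plus strand: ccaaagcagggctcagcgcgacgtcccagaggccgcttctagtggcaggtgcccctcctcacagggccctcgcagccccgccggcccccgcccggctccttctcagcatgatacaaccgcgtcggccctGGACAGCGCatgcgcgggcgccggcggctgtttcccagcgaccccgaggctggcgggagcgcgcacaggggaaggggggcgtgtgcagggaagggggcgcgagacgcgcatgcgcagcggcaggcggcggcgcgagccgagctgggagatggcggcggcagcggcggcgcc
ENO2, chr12:6914330-6914629, plus strand: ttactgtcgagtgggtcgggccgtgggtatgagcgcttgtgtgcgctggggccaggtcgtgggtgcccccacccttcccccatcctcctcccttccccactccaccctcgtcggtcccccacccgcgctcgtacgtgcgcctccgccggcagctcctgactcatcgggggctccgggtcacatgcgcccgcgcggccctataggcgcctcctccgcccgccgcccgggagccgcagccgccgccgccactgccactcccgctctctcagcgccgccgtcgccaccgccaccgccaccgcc
RAB3A, chr19:18203993-18204292, minus strand: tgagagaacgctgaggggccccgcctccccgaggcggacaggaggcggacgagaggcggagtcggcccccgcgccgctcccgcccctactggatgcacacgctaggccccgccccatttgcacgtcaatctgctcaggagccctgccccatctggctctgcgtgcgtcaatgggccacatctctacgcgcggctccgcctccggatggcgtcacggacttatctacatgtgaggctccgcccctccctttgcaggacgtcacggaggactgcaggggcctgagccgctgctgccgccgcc
TPPP, chr5:693303-693602, minus strand: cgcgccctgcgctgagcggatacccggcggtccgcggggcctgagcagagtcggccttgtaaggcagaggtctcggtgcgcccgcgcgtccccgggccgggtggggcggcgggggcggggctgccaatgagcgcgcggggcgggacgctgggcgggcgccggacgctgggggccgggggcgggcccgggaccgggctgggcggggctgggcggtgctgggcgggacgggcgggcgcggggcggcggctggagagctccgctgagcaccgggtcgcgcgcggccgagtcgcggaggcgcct

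These 5 windows were rich in G and C, with a share of 69.7% (RAB3A) to 83% (TPPP). Over the 38 member windows the median share was 69.8% and the median number of CpG dinucleotides 29.5, beside 58.7% and 14 over all promoters. The windows of BSN and SYN1 held 40 and 46 CpG dinucleotides.

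After TSA, the members with the largest level differences were high in every treated library and low in every untreated one. ENO2, the neuronal form of the glycolytic enzyme enolase, was at 35, 42.4 and 40.5 CPM in DTP_TSA, against 3.83, 3.49 and 3.61 CPM in DTP. In parental cells it was at 38.7, 38 and 36.0 CPM in parental_TSA, against 2.36, 2.65 and 2.65 CPM in parental_DMSO. The level with TSA was thus close to the same in persister and parental cells, and the log2 difference was 3.43 ± 0.09 (SE) in persisters and 3.88 ± 0.09 in parental cells.

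TPPP, EFR3B and MAP1A were each more than 4-fold higher with TSA in both populations. TPPP, which promotes tubulin polymerisation, was at 24.9, 22.1 and 21.4 CPM in DTP_TSA, against 0.452, 0.454 and 0.395 CPM in DTP, a log2 difference of 5.71 ± 0.18. In parental cells TPPP was at 3.54, 4.64 and 5.33 CPM in parental_TSA, against 0.641, 0.636 and 0.620 CPM in parental_DMSO, a difference of 2.84 ± 0.16. No library of DTP_TSA came near a library of parental_TSA for this gene. EFR3B, which anchors a lipid kinase to the plasma membrane, was at 22.0, 21.4 and 19.6 CPM in DTP_TSA, against 0.357, 0.699 and 0.685 CPM in DTP (log2 5.18 ± 0.23). EFR3B was at 5.21, 6.71 and 7.93 CPM in parental_TSA, against 0.600, 0.715 and 0.496 CPM in parental_DMSO (log2 3.45 ± 0.22). MAP1A, a microtubule-associated protein of mature neurons, was likewise high in all treated libraries. Its levels were 22.9, 21.6 and 21.2 CPM in DTP_TSA, against 0.464, 0.711 and 0.422 CPM in DTP (log2 5.36 ± 0.32), and 2.03, 3.32 and 4.80 CPM in parental_TSA, against 0.191, 0.0662 and 0.124 CPM in parental_DMSO (log2 4.74 ± 0.37).

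Among vesicle members, SYT11, a synaptotagmin that does not bind calcium, was at 38.1, 31.4 and 32.9 CPM in DTP_TSA, against 0.785, 0.539 and 0.685 CPM in DTP (log2 5.67 ± 0.26). SYT11 was at 0.855, 1.41 and 2.07 CPM in parental_TSA, against 0.0818, 0.106 and 0.110 CPM in parental_DMSO (log2 3.87 ± 0.33). Its groups did not overlap in either pair, and the treated level was far higher in persisters. RAB3A, the vesicle GTPase, was at 18.1, 14.1 and 13.4 CPM in DTP_TSA, against 1.23, 0.969 and 0.830 CPM in DTP (log2 3.91 ± 0.22). RAB3A was at 11.2, 8.99 and 8.31 CPM in parental_TSA, against 0.491, 0.795 and 0.786 CPM in parental_DMSO (log2 3.78 ± 0.22), so both cell populations had nearly the same difference. BSN, the scaffold Bassoon of the release site, was at 12.5, 7.83 and 8.39 CPM in DTP_TSA, against 1.09, 1.02 and 0.567 CPM in DTP (log2 3.41 ± 0.26). BSN was at 2.11, 2.47 and 2.62 CPM in parental_TSA, against 0.832, 0.530 and 0.634 CPM in parental_DMSO (log2 1.85 ± 0.26).

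**Figure D1:**
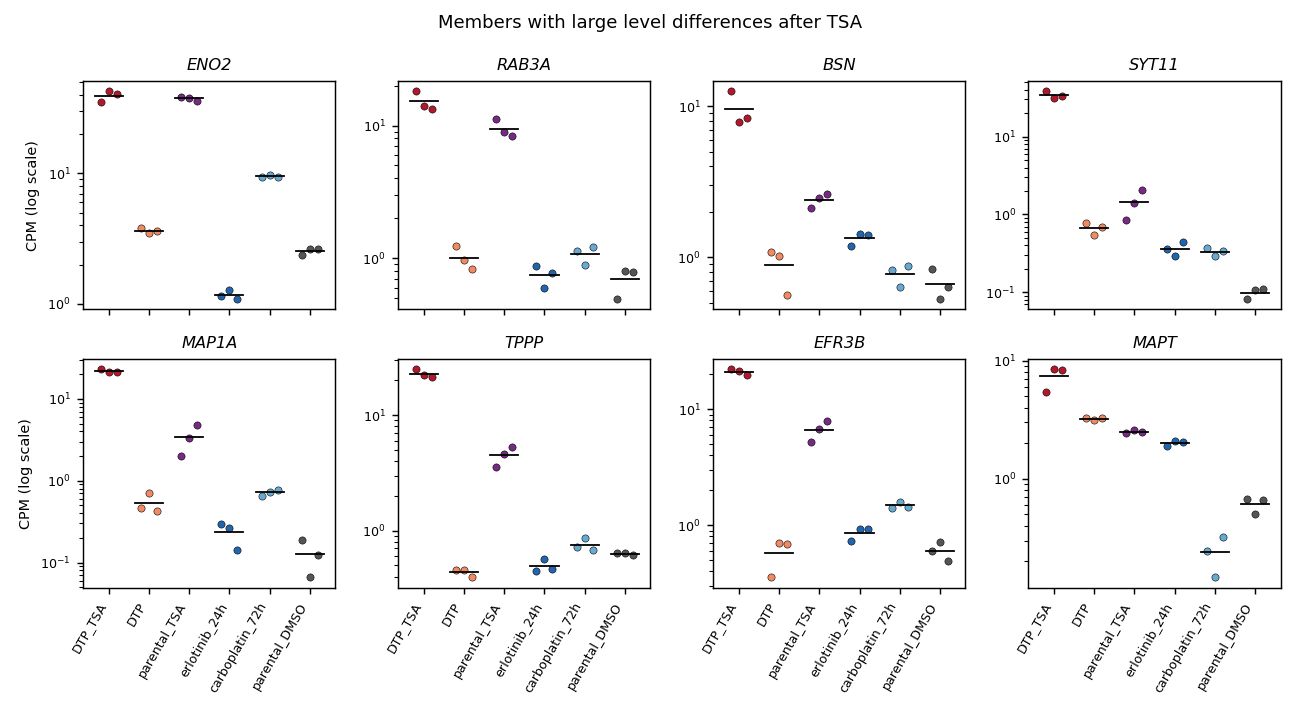
Level in CPM on a log axis of 8 members in each library of the 6 groups; points are libraries a, b and c and lines are group means. In DTP_TSA, TPPP lay between 21.4 and 24.9 CPM, above the 3.54 to 5.33 CPM of parental_TSA and the 0.395 to 0.454 CPM of DTP.

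SNAP25 and STMN4 had hardly any reads without TSA. SNAP25, a SNARE protein of the plasma membrane, had 100 reads over DTP_TSA and 0 over DTP, at least 36.0-fold higher when 3 reads over the group are taken as the floor for DTP. It had 17 reads over parental_TSA, none of them in library b, and 0 over parental_DMSO, at least 4.08-fold higher. STMN4, a neuronal stathmin, had 195 reads over DTP_TSA and 0 over DTP, at least 70.3-fold higher, with 2.27 CPM in DTP_TSA a and 0.582 and 0.592 CPM in b and c. STMN4 had 9 reads over parental_TSA and 1 over parental_DMSO, a ratio of 6.49 with a 95% counting interval of 0.899 to 284. These bounds and intervals cover counting error only.

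Other members differed less after TSA, or in 1 population. MAPT, the microtubule protein tau, was at 5.40, 8.42 and 8.30 CPM in DTP_TSA, against 3.26, 3.14 and 3.25 CPM in DTP (log2 1.20 ± 0.19), and at 2.44, 2.57 and 2.47 CPM in parental_TSA, against 0.668, 0.503 and 0.661 CPM in parental_DMSO (log2 2.03 ± 0.21). SCG2, a granin, was at 4.5, 10.9 and 10.9 CPM in DTP_TSA, against 1.76, 1.80 and 1.75 CPM in DTP (log2 2.32 ± 0.26), and at 6.17, 8.09 and 7.91 CPM in parental_TSA, against 5.58, 5.36 and 5.25 CPM in parental_DMSO (log2 0.46 ± 0.25). SYT7, a calcium sensor of slow release, differed by 1.12 ± 0.12 in persisters and 0.74 ± 0.13 in parental cells. In MAPT and SCG2 the lowest treated persister library was a, the one rich in spike-in. Syntaxin 1A (STX1A) was higher by 1.07 ± 0.12 in persisters and 0.44 ± 0.12 in parental cells. MAP2, which marks dendrites, differed by -0.04 ± 0.09 in persisters and 0.08 ± 0.10 in parental cells, with overlapping libraries in both pairs. MAP1B, an early neuronal microtubule protein, was lower with TSA in every library, by -0.50 ± 0.10 in persisters and -0.81 ± 0.10 in parental cells. CHGA, chromogranin A, was at 0, 0.0323 and 0.0431 CPM in DTP_TSA, against 0.226, 0.294 and 0.303 CPM in DTP, and so was below its untreated libraries while the vesicle members above were over theirs.

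The remaining members tested varied within about 1 log2 unit or had few reads. SYP, the vesicle protein synaptophysin, was at 0, 0.852 and 0.958 CPM in DTP_TSA, against 0.274, 0.147 and 0.211 CPM in DTP (log2 1.58 ± 0.66, or 2.09 without DTP_TSA a), and higher by 1.83 ± 0.66 in parental_TSA. SV2A, a glycoprotein of synaptic vesicles, differed by 0.86 ± 0.85 in persisters and 1.26 ± 0.89 in parental cells. The vesicle SNARE VAMP2 was at 7.70, 19.0 and 16.3 CPM in DTP_TSA, against 14, 15.7 and 15 CPM in DTP (log2 -0.04 ± 0.21), and differed by 0.72 ± 0.21 in parental cells. As for SYP, library a of DTP_TSA was the low one. CPLX1, a complexin that clamps the fusion machinery, differed by 0.62 ± 0.24 in persisters, or 0.39 without DTP_TSA a, and by -0.19 ± 0.23 in parental cells. CPLX2, a related complexin, was at 0.0458, 0.0455 and 0.0304 CPM in parental_TSA, against 0.15, 0.172 and 0.22 CPM in parental_DMSO, all treated libraries below all untreated ones (log2 -2.14 ± 0.64). UCHL1, an abundant neuronal deubiquitinase, was at 694, 711 and 709 CPM in DTP_TSA, against 882, 858 and 874 CPM in DTP (log2 -0.31 ± 0.10), and overlapped in parental cells. SYT1, RIMS2, SYN2, SCG5, DPYSL3 and CRMP1 had log2 differences of -0.98 (DPYSL3) to 0.21 (RIMS2) in persisters. In parental cells they had -1.05 (DPYSL3) to 0.44 (SYN2). Without DTP_TSA a, the persister values were -0.45 for DPYSL3, 0.09 for SYT1, -0.26 for SYN2, -0.65 for SCG5, 0.39 for RIMS2 and -0.22 for CRMP1.

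Of the 31 members tested, 15 passed an adjusted p of 0.05 as higher and 3 as lower in DTP_TSA against DTP, where 25.6% of all genes were higher and 30.7% lower. In parental_TSA against parental_DMSO 14 were higher and 5 lower, where 30.8% of all genes were higher and 27.4% lower. Nothing is read from these counts, since the TSA libraries helped to choose the members. The median log2 difference was 0.86 in persisters and 0.45 in parental cells, beside -0.08 and 0.06 over all genes tested, and was 0.86 and 0.45 with the genes of few reads at their bounds. Among members with more than 3 reads in each group, 8 were at least 4-fold higher in persisters and 7 in parental cells, and 6 of these were so in both: ENO2, SYT11, RAB3A, MAP1A, TPPP and EFR3B. No share of all genes past 4-fold is given, so nothing about the members is read from these 4-fold counts either. The difference between both TSA effects passed the threshold as larger in persisters for 8 members and as smaller for 3, where 15.3% of all genes were larger and 23.0% smaller. Scaled to spike-ins, those members numbered 6 and 0, and 17 and 1 were higher and lower in DTP_TSA. Without replicate a of both TSA groups 17 passed for that difference. Just inside the threshold of 4-fold in persisters was SCG2 (log2 2.32) and just outside it SYP (1.58).

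**Figure D2:**
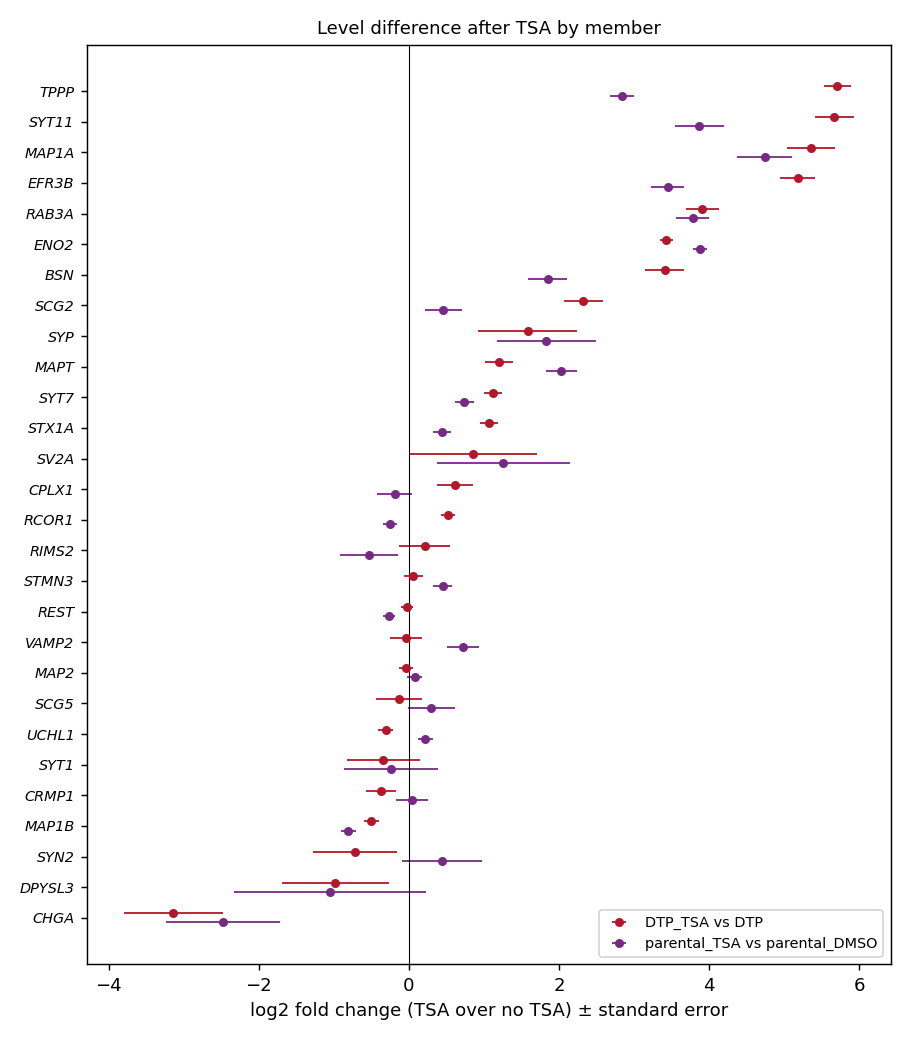
Log2 fold change after TSA with its standard error for 28 members tested, in persisters (DTP_TSA over DTP, upper point of each pair) and parental cells (parental_TSA over parental_DMSO, lower point); SNAP25, STMN4 and CPLX2 are left out for lack of reads. TPPP stood at 5.71 in persisters and 2.84 in parental cells, ENO2 at 3.43 and 3.88, and MAP2 near 0 in both.

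In persisters without TSA, MAP2, SYT1, DPYSL3 and SYT11 were among the members that rose, and STX1A, STMN3, CPLX1 and SCG2 among those that fell. Of 31 members tested, 15 rose and 7 fell in DTP against parental_DMSO, where 31.0% of all genes rose and 27.8% fell; the split was 17 and 6 when scaled to spike-ins. The median log2 difference of the members was 0.48 (0.51 with genes of few reads at their bounds), beside 0.06 over all genes tested. This comparison shares parental_DMSO and DTP with the comparisons that helped to choose the members, so the count is no independent support. All adjusted p-values of members below are from the quasi-likelihood F-test of edgeR, adjusted by Benjamini and Hochberg over all genes tested.

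MAP2 rose most firmly, with 83.6, 81.7 and 81.8 CPM in DTP, against 3.79, 4.16 and 4.01 CPM in parental_DMSO (log2 4.37 ± 0.11, edgeR adjusted p = 3.34e-15). It was at 13.7, 13.2 and 15 CPM in erlotinib_24h (log2 1.81 ± 0.10 over parental_DMSO, edgeR adjusted p = 4.61e-11) and at 1.66, 1.70 and 1.51 CPM in carboplatin_72h (log2 -1.3 ± 0.11, edgeR adjusted p = 3.16e-08). The 3 drug groups did not overlap with each other or with parental_DMSO. SYT1, the calcium sensor of fast vesicle release, followed the same order, at 3.70, 3.38 and 3.70 CPM in DTP and 0.937, 0.856 and 0.807 CPM in erlotinib_24h, against 0.245, 0.172 and 0.234 CPM in parental_DMSO. SYT1 rose by 4.04 ± 0.59 in DTP (edgeR adjusted p = 1.59e-05) and by 1.99 ± 0.58 in erlotinib_24h (edgeR adjusted p = 0.00604) on the log2 scale. In carboplatin_72h it was at 0.0491, 0.0534 and 0.0561 CPM (log2 -2.01 ± 0.78, edgeR adjusted p = 0.0358), a call that was lost when parental_DMSO a or c or any carboplatin_72h library was left out, with adjusted p-values of 0.0725 to 0.0872, and with spike-in scaling.

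SYT7 rose in all 3 drug groups, at 19.8, 22.1 and 21.8 CPM in DTP, 12.0, 11.2 and 12.2 CPM in erlotinib_24h and 14.8, 13.3 and 14.7 CPM in carboplatin_72h, against 5.14, 5.07 and 4.91 CPM in parental_DMSO. The log2 changes were 2.08 ± 0.13, 1.23 ± 0.13 and 1.5 ± 0.13, in that order of groups (edgeR adjusted p = 5.76e-10, 2.31e-07 and 3.84e-08). SYT11 also rose in all 3, by 2.74 ± 0.36, 1.85 ± 0.38 and 1.73 ± 0.39 (edgeR adjusted p = 4.20e-06, 3.94e-04 and 0.00118). These comparisons share the parental_DMSO libraries.

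Tau and the collapsin-response proteins, which link guidance cues to microtubules in growth cones, also rose in DTP. MAPT rose by 2.40 ± 0.22 in DTP (edgeR adjusted p = 5.10e-08) and by 1.72 ± 0.21 in erlotinib_24h (edgeR adjusted p = 1.74e-06), and fell in carboplatin_72h, with 0.245, 0.147 and 0.322 CPM there, against 0.668, 0.503 and 0.661 CPM in parental_DMSO (log2 -1.36 ± 0.25, edgeR adjusted p = 1.86e-04). DPYSL3 was at 2.96, 2.67 and 3.21 CPM in DTP and 0.653, 0.5 and 0.615 CPM in erlotinib_24h, against 0, 0.0662 and 0.124 CPM in parental_DMSO, and rose by 5.51 ± 0.96 and 3.19 ± 0.95 (edgeR adjusted p = 9.39e-05 and 0.00707). CRMP1 moved in opposite directions in the erlotinib groups: it was at 2.40, 2.51 and 2.70 CPM in DTP and 0.579, 0.722 and 0.538 CPM in erlotinib_24h, against 0.954, 1.07 and 0.951 CPM in parental_DMSO. The log2 changes were 1.35 ± 0.21 (edgeR adjusted p = 2.66e-05) and -0.69 ± 0.21 (edgeR adjusted p = 0.00886). MAP1A rose by 2.06 ± 0.41 in DTP (edgeR adjusted p = 3.49e-04) and by 2.49 ± 0.40 in carboplatin_72h (edgeR adjusted p = 4.60e-05), and gave 0.89 ± 0.45 in erlotinib_24h (edgeR adjusted p = 0.0923). MAP1B rose by 0.69 ± 0.10 in DTP (edgeR adjusted p = 2.22e-05), with 358, 359 and 346 CPM, against 207, 227 and 225 CPM in parental_DMSO. It fell by 0.50 in carboplatin_72h (edgeR adjusted p = 5.57e-04), which turned to 0.15 with spike-in scaling.

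Plasma membrane fusion proteins, by contrast, went down with erlotinib. STX1A was at 7.22, 7.5 and 6.88 CPM in DTP and 8.01, 8.51 and 9.16 CPM in erlotinib_24h, against 17.4, 19.3 and 20.6 CPM in parental_DMSO. It fell by 1.41 in DTP (SE 0.12, edgeR adjusted p = 3.31e-08) and by 1.16 in erlotinib_24h (SE 0.12, edgeR adjusted p = 1.93e-07) on the log2 scale, and no library of either group reached a parental_DMSO library. STX1A shares 662 exon bases with BUD23 on the opposite strand. Whether the counting used strand is not given in the sources used here, so reads within those bases cannot be told apart. CPLX1 fell by 1.3 in DTP (SE 0.24, edgeR adjusted p = 1.5e-04) and by 0.81 in carboplatin_72h (SE 0.23, edgeR adjusted p = 0.00673, not past the threshold with spike-in scaling). Its value in erlotinib_24h, -0.56 ± 0.23 (edgeR adjusted p = 0.0390), missed the threshold when any parental_DMSO library or erlotinib_24h a or b was left out, at adjusted p-values of 0.0552 to 0.152. CPLX2 had 1 read over DTP and 40 over parental_DMSO, a ratio of 0.0229 with a 95% counting interval of 0.000566 to 0.135. STMN3, a neuronal stathmin, was at 27.0, 27.4 and 27.9 CPM in DTP and 23.4, 24.8 and 24.5 CPM in erlotinib_24h, against 63.2, 57.6 and 68.3 CPM in parental_DMSO, and fell by 1.20 and 1.38 (SE 0.13 each, edgeR adjusted p = 6.17e-07 and 6.77e-08).

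Other changes in DTP, some of them smaller or less firm, were those of ENO2, UCHL1, RIMS2, TPPP and RAB3A. ENO2 was at 3.83, 3.49 and 3.61 CPM in DTP, against 2.36, 2.65 and 2.65 CPM in parental_DMSO (log2 0.51 ± 0.09, edgeR adjusted p = 1.09e-04). UCHL1 rose by 0.31 ± 0.10 (edgeR adjusted p = 0.0113) and RIMS2, which docks vesicles at the release site, by 1.66 ± 0.37 (edgeR adjusted p = 9.52e-04). TPPP gave -0.54 ± 0.18 (edgeR adjusted p = 0.0171), lost at 0.0636 without DTP c and also with spike-in scaling, and RAB3A gave 0.55 ± 0.23 (edgeR adjusted p = 0.0472), lost at 0.0502 to 0.217 without any of 9 libraries. BSN, EFR3B, SYP, VAMP2, SV2A and STMN4 did not pass in DTP, at log2 values of 0.43 ± 0.26, -0.06 ± 0.24, -0.04 ± 0.70, 0.41 ± 0.21 and 0.52 ± 0.94 for the 5 genes with more than 3 reads in each group.

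Secretory members were mixed. SCG2 was at 1.76, 1.80 and 1.75 CPM in DTP, 0.296, 0.267 and 0.461 CPM in erlotinib_24h and 2.07, 2.35 and 1.72 CPM in carboplatin_72h, against 5.58, 5.36 and 5.25 CPM in parental_DMSO. It fell by 1.61, 3.99 and 1.40 in that order (edgeR adjusted p = 4.88e-05, 3.58e-09 and 1.98e-04), and erlotinib_24h held its lowest libraries. CHGA was at 0.226, 0.294 and 0.303 CPM in DTP, against 0.123, 0.0397 and 0.0689 CPM in parental_DMSO (log2 1.81 ± 0.58, edgeR adjusted p = 0.0127), a call lost without parental_DMSO b or c, at adjusted p-values of 0.0507 and 0.0711. SCG5, the chaperone of a prohormone convertase, gave 0.71 ± 0.31 in DTP (edgeR adjusted p = 0.0631) and rose by 1.48 ± 0.31 in carboplatin_72h (edgeR adjusted p = 6.33e-04).

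**Figure D3:**
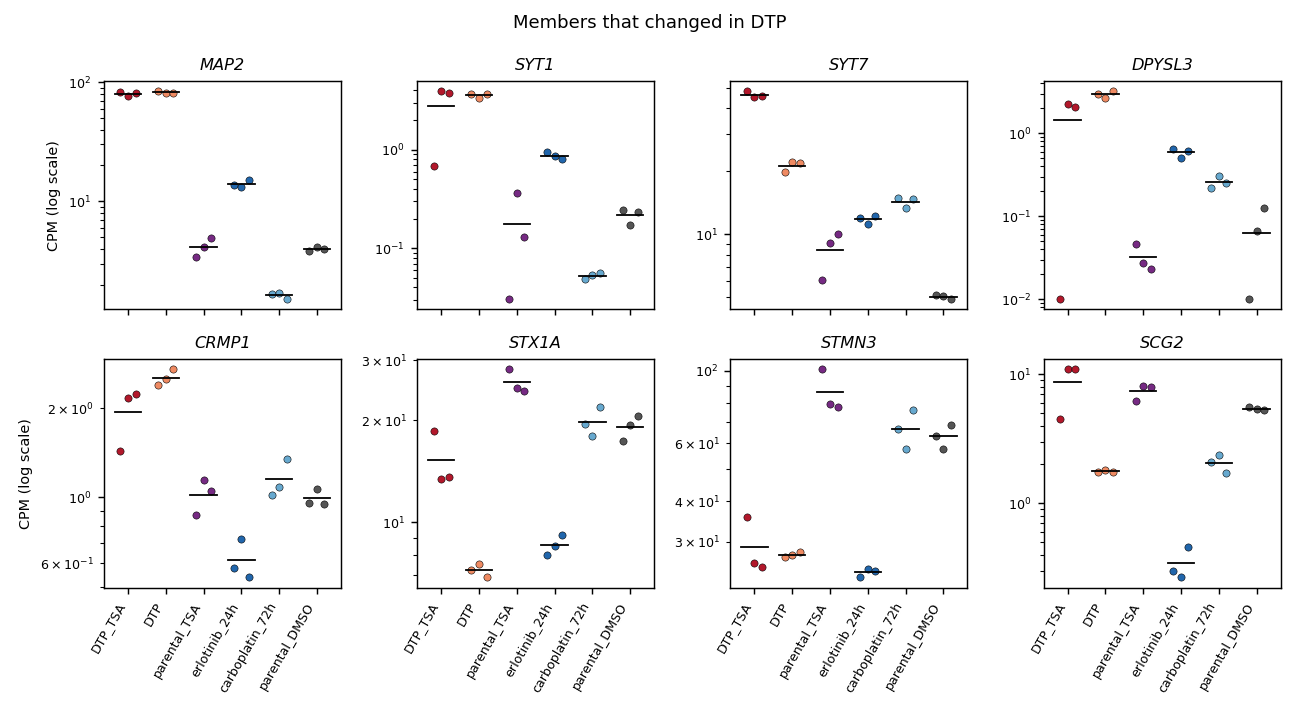
Level in CPM on a log axis of 8 members past the threshold in DTP against parental_DMSO, in each library of the 6 groups; points are libraries, lines are group means, and 0 CPM is drawn at 0.01. MAP2 lay between 81.7 and 83.6 CPM in DTP, 13.2 and 15 CPM in erlotinib_24h, 1.51 and 1.70 CPM in carboplatin_72h and 3.79 and 4.16 CPM in parental_DMSO, while STX1A and STMN3 were lower in both erlotinib groups than in parental_DMSO.

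After 24 hours of erlotinib 8 of 31 members tested rose and 8 fell, where 36.6% of all genes rose and 32.7% fell. When scaled to spike-ins the split was 8 and 12, with a median of -0.23 over all genes. The median log2 difference was 0.03 (0.11 with genes of few reads at their bounds), beside 0.11 over all genes. The members that rose were SYT1, SYT7, SYT11, BSN, MAP2, MAPT, DPYSL3 and REST. BSN was at 1.18, 1.43 and 1.41 CPM, against 0.832, 0.530 and 0.634 CPM in parental_DMSO (log2 1.01 ± 0.26, edgeR adjusted p = 0.00220). ENO2 was at 1.16, 1.27 and 1.09 CPM in erlotinib_24h, against 2.36, 2.65 and 2.65 CPM in parental_DMSO (log2 -1.12 ± 0.10, edgeR adjusted p = 1.93e-08). UCHL1 gave -0.25 ± 0.10 (edgeR adjusted p = 0.0303), and missed the threshold at adjusted p-values of 0.0540 to 0.0789 without parental_DMSO a or b or erlotinib_24h b or c.

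With carboplatin 11 of 31 members tested rose and 7 fell, where 30.3% of all genes rose and 28.6% fell. When scaled to spike-ins the split was 20 and 3, with a median of 0.72 over all genes, so the split went the way of all genes. The median log2 difference was 0.23, beside 0.06 over all genes. Of the 3 drug groups, ENO2 rose most over parental_DMSO here, at 9.33, 9.80 and 9.33 CPM in carboplatin_72h, against 2.36, 2.65 and 2.65 CPM in parental_DMSO (log2 1.89 ± 0.09, edgeR adjusted p = 1.96e-11). SV2A was at 0.454, 0.401 and 0.266 CPM in carboplatin_72h, against 0.0409, 0.0662 and 0.0276 CPM in parental_DMSO (log2 3.01 ± 0.86, edgeR adjusted p = 0.00650). VAMP2 rose by 0.99 ± 0.21 (edgeR adjusted p = 6.96e-04), and EFR3B by 1.29 ± 0.22 (edgeR adjusted p = 9.54e-05). RIMS2 gave 1.14 ± 0.37 (edgeR adjusted p = 0.0149; 0.0562 without parental_DMSO b). SYP gave 1.84 ± 0.67 (edgeR adjusted p = 0.0256), lost at adjusted p-values of 0.0587 to 0.0864 without any parental_DMSO library or carboplatin_72h b or c. RAB3A gave 0.64 ± 0.23 (edgeR adjusted p = 0.0217), lost at 0.0640 to 0.141 without parental_DMSO a or carboplatin_72h a or c. SYN2, a second synapsin, passed in none of the drug comparisons, at -0.35 ± 0.54 (edgeR adjusted p = 0.602) for DTP, -1.16 ± 0.56 (0.0764) for erlotinib_24h and -0.92 ± 0.56 (0.169) for carboplatin_72h.

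In DTP against erlotinib_24h 14 of 31 members tested were higher and 4 lower, where 30.5% of all genes were higher and 24.8% lower. The share of members past the threshold in either direction was thus near that of all genes. When scaled to spike-ins the split was 20 and 2, with a median of 0.48 over all genes, so the split went the way of all genes. Without replicate a of both TSA groups 27 passed. No share of all genes is given for that setting, so nothing about the members is read from it. The median log2 difference was 0.56 (0.67 with genes of few reads at their bounds), beside 0.03 over all genes. MAP2 (log2 2.56 ± 0.10, edgeR adjusted p = 1.01e-12), CRMP1 (2.04 ± 0.21, 3.65e-07), SCG2 (2.38 ± 0.31, 4.31e-06), ENO2 (1.63 ± 0.10, 2.55e-10) and RIMS2 (2.34 ± 0.38, 6.03e-05) were higher in DTP. The calls of SYT11 (0.88 ± 0.28), MAP1A (1.17 ± 0.36), DPYSL3 (2.32 ± 0.75), SCG5 (0.76 ± 0.31), EFR3B (-0.57 ± 0.23), CPLX1 (-0.74 ± 0.24) and RCOR1 (-0.26 ± 0.09) were each lost when a single library was left out: DTP a or erlotinib_24h b for SYT11, DTP b or erlotinib_24h c for MAP1A, erlotinib_24h b for DPYSL3, erlotinib_24h c for CPLX1, DTP a or b or erlotinib_24h a or c for RCOR1, and 13 and 10 different libraries for SCG5 and EFR3B. Their adjusted p-values then were 0.0592 and 0.0636 for SYT11, 0.0568 and 0.0675 for MAP1A, 0.0571 for DPYSL3, 0.0614 for CPLX1, 0.0551 to 0.0702 for RCOR1, 0.0529 to 0.129 for SCG5 and 0.0523 to 0.232 for EFR3B.

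The comparison of erlotinib_24h with carboplatin_72h shares no library with the TSA comparisons. Of 31 members tested, 6 were higher and 14 lower in erlotinib_24h, where 33.3% of all genes were higher and 34.0% lower. When scaled to spike-ins the split was 3 and 20, with a median of -1.03 over all genes, so the split went the way of all genes. The median log2 difference was -0.35, beside -0.02 over all genes. SYT1 (log2 4.0 ± 0.70, edgeR adjusted p = 8.60e-05), MAP2 (3.10 ± 0.11, 1.74e-13) and MAPT (3.07 ± 0.24, 4.60e-09) were higher with erlotinib, while ENO2 (-3.01 ± 0.10, 4.97e-14), SCG2 (-2.59 ± 0.31, 9.58e-07), STMN3 (-1.46 ± 0.13, 3.75e-08) and STX1A (-1.20 ± 0.12, 1.34e-07) were lower. Also lower were VAMP2 (-0.81 ± 0.21), RIMS2 (-1.82 ± 0.39), SV2A (-2.81 ± 0.83), MAP1A (-1.60 ± 0.35), TPPP (-0.62 ± 0.17), SCG5 (-1.54 ± 0.31), UCHL1 (-0.35 ± 0.10), CRMP1 (-0.90 ± 0.21) and EFR3B (-0.78 ± 0.21). BSN gave 0.78 ± 0.25 (edgeR adjusted p = 0.0123), lost at 0.0503 without carboplatin_72h b, and turned to -0.21 with spike-in scaling. MAP1B gave 0.53 ± 0.10 (edgeR adjusted p = 2.69e-04) and turned to -0.49. RAB3A gave -0.53 ± 0.22 (edgeR adjusted p = 0.0434), lost at 0.0501 to 0.205 without any of 7 libraries.

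REST itself was measured well in every library. It was at 45.0, 45.0 and 44.9 CPM in DTP_TSA and 46.1, 45.5 and 45.5 CPM in DTP, at 22.7, 28.0 and 30.2 CPM in parental_TSA, at 39.0, 40.1 and 42.1 CPM in erlotinib_24h, at 33.7, 36.7 and 34.1 CPM in carboplatin_72h and at 31.9, 33.3 and 32.8 CPM in parental_DMSO. Every DTP library was above every parental_DMSO library (log2 0.48 ± 0.08, edgeR adjusted p = 5.15e-05). Any link between the level of REST and those of the other members was not tested. REST rose by 0.31 ± 0.08 in erlotinib_24h (edgeR adjusted p = 0.00243), which turned to -0.06 with spike-in scaling. It gave 0.09 ± 0.08 in carboplatin_72h (edgeR adjusted p = 0.329). Its value in erlotinib_24h against carboplatin_72h, 0.21 ± 0.08 (edgeR adjusted p = 0.0246), turned to -0.80 with spike-in scaling and was lost without erlotinib_24h c or carboplatin_72h a or c. After TSA the difference was -0.02 ± 0.08 in persisters and -0.27 ± 0.08 in parental cells, or -0.16 in parental cells without replicate a of both TSA groups. REST shares 23 exon bases with NOA1 on the opposite strand.

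RCOR1 was at 148, 154 and 151 CPM in DTP_TSA and 104, 105 and 107 CPM in DTP, at 109, 148 and 160 CPM in parental_TSA, at 126, 125 and 128 CPM in erlotinib_24h, at 136, 137 and 134 CPM in carboplatin_72h and at 167, 167 and 164 CPM in parental_DMSO. All drug libraries without TSA were below all parental_DMSO libraries. It fell by 0.65 in DTP (SE 0.09, edgeR adjusted p = 8.57e-06), by 0.39 in erlotinib_24h (SE 0.09, edgeR adjusted p = 9.62e-04) and by 0.29 in carboplatin_72h (SE 0.09, edgeR adjusted p = 0.0109), the last of which turned to 0.36 with spike-in scaling. With TSA its difference was 0.52 ± 0.09 in persisters and -0.25 ± 0.09 in parental cells, or -0.11 in parental cells without replicate a of both TSA groups.

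**Figure D4:**
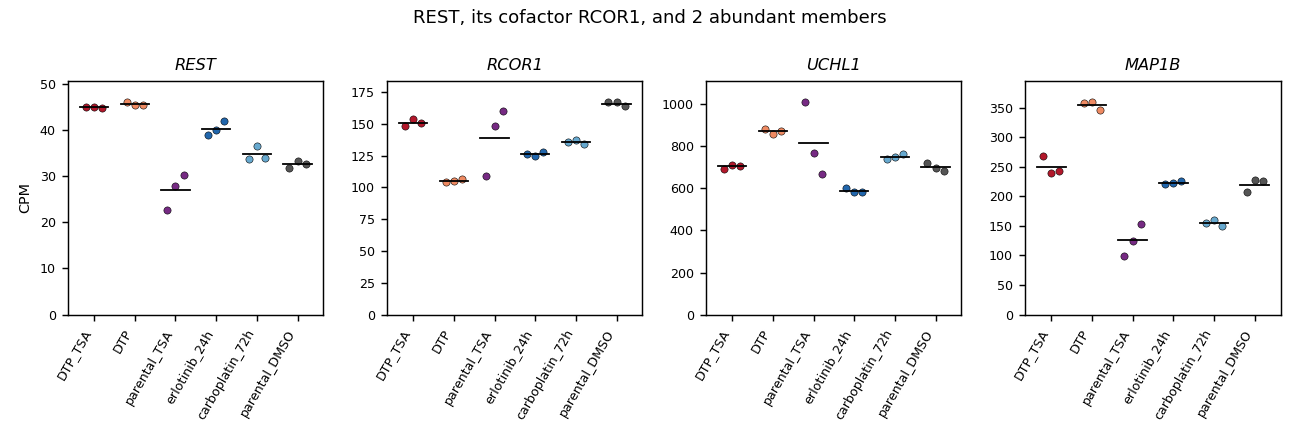
Level in CPM on a linear axis from 0 of REST, RCOR1, UCHL1 and MAP1B in each library of the 6 groups; points are libraries and lines are group means. REST lay between 45.5 and 46.1 CPM in DTP and 31.9 and 33.3 CPM in parental_DMSO, and RCOR1 between 104 and 107 CPM in DTP and 164 and 167 CPM in parental_DMSO.

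Some members named above sit in loci shared with another gene. An exon of 14 members overlaps one of another gene on the opposite strand in GENCODE 29, among them TPPP with CEP72 (404 bases), RAB3A with MPV17L2 (165), CRMP1 with EVC (159), SYN2 with TIMP4 (170), UCHL1 with UCHL1-AS1 (135), MAPT with MAPT-AS1 (75) and SYP with SYP-AS1 (68). An exon of 4 members overlaps one of another gene on the same strand, such as VAMP2 with AC129492.3 (430 bases). Reads within the shared bases cannot be told apart here, and how many reads fell there was not measured.

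Further synaptic genes outside the members moved mostly upward. Of 40 listed, 25 were tested, and 14 rose and 1 fell in DTP against parental_DMSO, 18 rose and 3 fell in erlotinib_24h, and 14 rose and 5 fell in carboplatin_72h. In shares, 56% rose and 4% fell in DTP, beside 31.0% and 27.8% of all genes. In erlotinib_24h 72% and 12% did so, beside 36.6% and 32.7%, and in carboplatin_72h 56% and 20%, beside 30.3% and 28.6%. SYNGR3, a synaptogyrin of the vesicle membrane, averaged 13.6 ± 0.358 CPM in DTP and 5.40 ± 0.282 CPM in erlotinib_24h, against 1.04 ± 0.228 CPM in parental_DMSO (SD, n = 3 each; log2 3.71 ± 0.17 and 2.38 ± 0.17, edgeR adjusted p = 8.80e-12 and 9.95e-10). SYT12 averaged 65.1 ± 1.87 CPM in erlotinib_24h, against 15.5 ± 0.713 CPM in parental_DMSO (log2 2.07 ± 0.09, edgeR adjusted p = 8.97e-13). RAB3B, a relative of RAB3A, fell in both erlotinib groups, to 4.96 ± 0.320 CPM in DTP and 1.46 ± 0.389 CPM in erlotinib_24h, against 7.83 ± 0.664 CPM in parental_DMSO (log2 -0.66 ± 0.20 and -2.43 ± 0.22). The list's median log2 difference in DTP was 1.52, that in erlotinib_24h was 2.07, and that in carboplatin_72h was 1.01, beside 0.06, 0.11 and 0.06 over all genes tested.

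With TSA, 14 of these 25 (56%) rose and 1 (4%) fell in each of persister and parental cells. Of all genes tested, 25.6% rose and 30.7% fell in persisters, and 30.8% and 27.4% did so in parental cells. VAMP1, a vesicle SNARE related to VAMP2, averaged 15.8 ± 0.751 CPM in DTP_TSA, against 3.96 ± 0.248 CPM in DTP (SD, n = 3 each; log2 1.99 ± 0.10, edgeR adjusted p = 9.12e-11). It averaged 5.97 ± 0.455 CPM in parental_TSA, against 1.27 ± 0.154 CPM in parental_DMSO (log2 2.23 ± 0.11, edgeR adjusted p = 4.52e-11), so it rose in both cell populations. The median difference was 0.43 in persisters and 0.87 in parental cells, beside -0.08 and 0.06 over all genes.

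Of 26 further genes of the neuronal cytoskeleton and growth cone, 23 were tested. Of these, 60.9% rose and 8.7% fell in DTP, beside 31.0% and 27.8% of all genes. In erlotinib_24h the shares, 39.1% and 26.1%, were near the 36.6% and 32.7% of all genes. In carboplatin_72h they were 26.1% and 39.1%, beside 30.3% and 28.6%. With TSA they were 56.5% and 13% in persisters, beside 25.6% and 30.7%. In parental cells with TSA they were 47.8% and 8.7%, beside 30.8% and 27.4%. In DTP against parental_DMSO 14 rose and 2 fell, with ANK2, a neuronal ankyrin, at 18.8 ± 1.09 CPM in DTP, against 0.370 ± 0.0294 CPM in parental_DMSO (log2 5.66 ± 0.15, edgeR adjusted p = 6.94e-15), and the adhesion molecules NCAM1 and L1CAM higher by 2.11 ± 0.11 and 3.18 ± 0.18 (edgeR adjusted p = 4.38e-11 and 1.69e-10). In erlotinib_24h 9 rose and 6 fell, and in carboplatin_72h 6 rose and 9 fell; when scaled to spike-ins both splits turned, to 6 and 8 in erlotinib_24h and 14 and 7 in carboplatin_72h. INA, an intermediate filament protein of neurons, fell to 16.1 ± 0.375 CPM in erlotinib_24h, against 52.1 ± 0.213 CPM in parental_DMSO (log2 -1.70 ± 0.08, edgeR adjusted p = 3.20e-12). With TSA 13 rose and 3 fell in persisters, and 11 rose and 2 fell in parental cells; CNTN1, an adhesion molecule, rose by 4.51 ± 0.33 in persisters (edgeR adjusted p = 6.41e-09), and NEFH, the heavy neurofilament subunit, fell by 1.29 in persisters (edgeR adjusted p = 8.97e-07) and by 0.57 in parental cells (edgeR adjusted p = 0.00232).

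Few neuroendocrine genes had reads: of 26 outside the members 6 were tested. Of all genes tested, 31.0% rose and 27.8% fell in DTP, 36.6% and 32.7% in erlotinib_24h and 30.3% and 28.6% in carboplatin_72h. With TSA 25.6% and 30.7% did so in persisters and 30.8% and 27.4% in parental cells. So few genes cannot be set apart from these shares. In DTP 3 rose and 2 fell, in erlotinib_24h 4 rose and 1 fell, and in carboplatin_72h 0 rose and 2 fell. Scaled to spike-ins the splits were 3 and 3 in DTP, 2 and 2 in erlotinib_24h and 4 and 1 in carboplatin_72h, where the direction turned. CPE, a carboxypeptidase of dense-core granules, rose to 7.60 ± 0.397 CPM in DTP, against 0.615 ± 0.165 CPM in parental_DMSO (log2 3.62 ± 0.23, edgeR adjusted p = 5.86e-10). TH, which makes the precursor of dopamine, rose to 4.16 ± 0.325 CPM in erlotinib_24h, against 0.348 ± 0.0321 CPM in parental_DMSO (log2 3.57 ± 0.33, edgeR adjusted p = 3.81e-08). In DTP, by contrast, TH fell below that parental_DMSO level (log2 -3.33 ± 0.45, edgeR adjusted p = 6.78e-06). With TSA 1 rose and 0 fell in persisters and 4 rose and 0 fell in parental cells, or 2 and 1 in persisters and 3 and 0 in parental cells when scaled to spike-ins; SLC18A2, the vesicular monoamine transporter, rose in both, by 1.05 ± 0.18 and 1.12 ± 0.18 (edgeR adjusted p = 1.03e-04 and 4.39e-05).

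Of 27 tested genes for partners of REST, 9 rose and 6 fell in DTP, 13 rose and 8 fell in erlotinib_24h and 9 rose and 13 fell in carboplatin_72h. Scaled to spike-ins the splits were 6 and 3 in DTP, and they turned to 6 and 9 in erlotinib_24h and to 15 and 1 in carboplatin_72h. The shares in DTP, 33.3% higher and 22.2% lower, were near the 31.0% and 27.8% of all genes. In erlotinib_24h they were 48.1% and 29.6%, beside 36.6% and 32.7%, and in carboplatin_72h 33.3% and 48.1%, beside 30.3% and 28.6%. With TSA they were 18.5% and 51.9% in persisters, beside 25.6% and 30.7%. In parental cells with TSA they were 25.9% and 29.6%, beside 30.8% and 27.4%. KDM1A, the demethylase bound by CoREST, fell to 315 ± 4.84 CPM in DTP, against 563 ± 6.50 CPM in parental_DMSO (log2 -0.84 ± 0.04, edgeR adjusted p = 5.34e-11), and HDAC2 and HDAC1 fell by 0.60 and 0.34 (edgeR adjusted p = 1.29e-08 and 1.60e-06). Among the 9 partners that rose in DTP were PHF21A (log2 1.53 ± 0.12, edgeR adjusted p = 8.26e-09) and CTDSP2 (1.04 ± 0.10, 7.31e-08). ZMYM3 (0.92 ± 0.10, 6.56e-07) and RCOR2, a relative of RCOR1 (1.08 ± 0.18, 8.25e-05), rose there too. In erlotinib_24h KDM1A rose by 0.57 ± 0.04 (edgeR adjusted p = 3.79e-09). With TSA 5 rose and 14 fell in persisters, and 7 rose and 8 fell in parental cells, or 4 and 5 in persisters and 6 and 2 in parental cells when scaled to spike-ins. KDM1A was at 179 ± 5.45 CPM in DTP_TSA, against 315 ± 4.84 CPM in DTP (log2 -0.81 ± 0.04, edgeR adjusted p = 1.75e-10). SAP30, a subunit of a deacetylase complex, rose by 1.55 ± 0.14 in persisters and 1.91 ± 0.14 in parental cells (edgeR adjusted p = 7.34e-08 and 4.58e-09).

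The 30 general vesicle fusion genes, which serve membrane traffic in all cells, had more genes that rose than fell with TMM scaling: 13 rose and 4 fell in DTP, 18 and 4 did so in erlotinib_24h, 19 and 4 did so in carboplatin_72h, 16 and 9 did so in DTP_TSA against DTP, and 16 and 6 in parental_TSA against parental_DMSO. When scaled to spike-ins the splits were 10 and 1, 7 and 9, 25 and 2, 12 and 1, and 11 and 2 in that order of comparisons, so that of erlotinib_24h turned. Their median log2 differences, in that order, were 0.11, 0.38, 0.31, 0.18 and 0.20, beside 0.06, 0.11, 0.06, -0.08 and 0.06 over all genes. With TMM scaling 43.3%, 60%, 63.3%, 53.3% and 53.3% of them rose, beside 31.0%, 36.6%, 30.3%, 25.6% and 30.8% of all genes. The shares that fell were 13.3%, 13.3%, 13.3%, 30% and 20%, beside 27.8%, 32.7%, 28.6%, 30.7% and 27.4%. SYTL2, a synaptotagmin-like protein of secretory vesicles, rose by 2.37 ± 0.13 in DTP and 3.71 ± 0.14 in erlotinib_24h (edgeR adjusted p = 1.27e-10 and 2.65e-13), and SNAP29, a relative of SNAP25, rose with TSA by 1.42 ± 0.06 in persisters and 1.23 ± 0.06 in parental cells (edgeR adjusted p = 1.29e-11 and 5.32e-11).

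**Figure D5:**
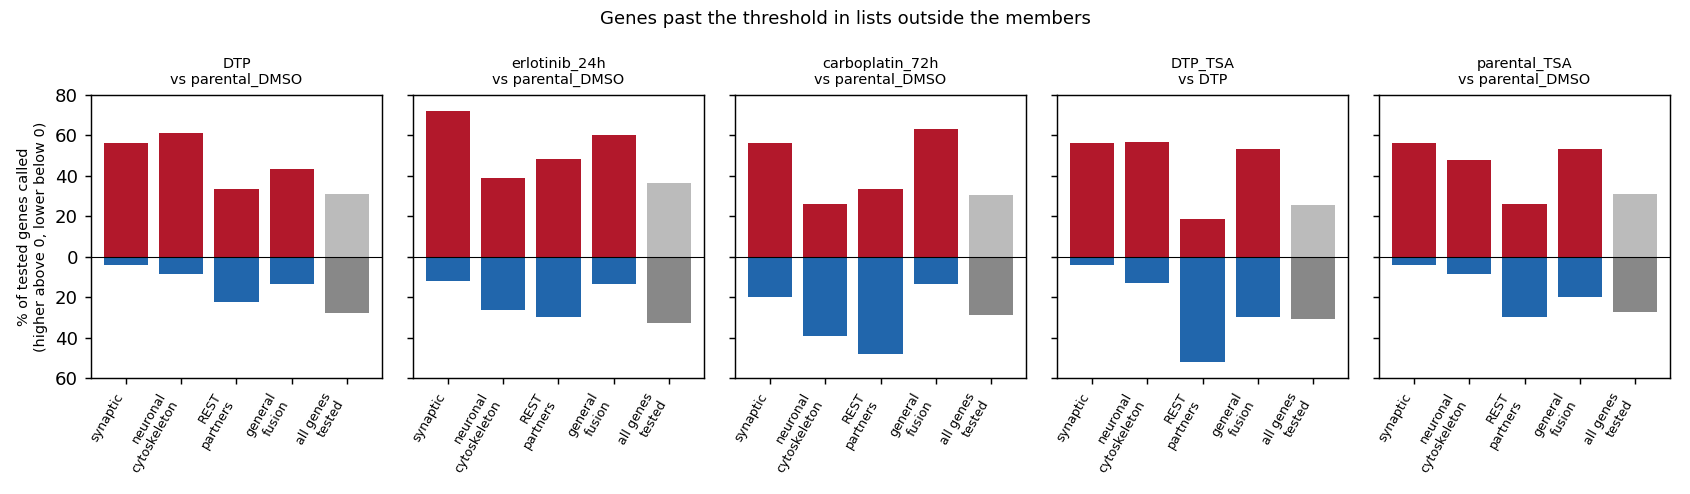
Share of tested genes past the threshold as higher (red, above 0) and lower (blue, below 0) in 4 lists outside the members and over all genes tested (grey), in 5 comparisons. Synaptic genes were higher in 56% of cases in DTP against parental_DMSO and lower in 4%, beside 31.0% and 27.8% of all genes.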

How the data were processed

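Gene-level RNA was measured in 18 libraries. Per the labels, libraries came from polyA RNA with an ERCC spike-in scaled to the number of cells. The deposited tables hold expected counts per gene and per spike-in, which the submitters' processing notes credit to Salmon; its version, the use of strand, the annotation and the build were not given in the sources used here. Tables of repeats were not used here, and 3 columns that match no sample were left out. Symbols were matched for 27814 of 30727 identifiers; the rest took 0.247% of gene reads.

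The authors' expected counts were rounded, filtered by filterByExpr (17641 genes kept) and scaled by TMM. Differences were tested with edgeR 4.0.16 in R 4.3.3 with limma 3.58.1, by its quasi-likelihood F-test. All 18 libraries entered 1 fit, which had a term for each group, 12 residual degrees of freedom, a biological coefficient of variation of 0.136 and 8 contrasts. Benjamini-Hochberg adjustment was made per contrast over all genes tested, and the threshold was 0.05. A standard error is the log2 change divided by the square root of F. Gene reads ran from 32139343 to 128293531 per library. Where a group had no read, the fold is a bound against 3 reads over the group; with 1 to 3 reads, a ratio with a 95% counting interval is given. The test was checked on simulated data.

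The members, the lists of other genes and the alternatives were chosen with earlier results of these data known. All members are named; of each list outside the members, up to 4 genes per direction with the smallest p and at least 1 CPM in the higher group could be named; some genes that this allows are not reported here. Results were recomputed with DESeq2 1.42.0, with its size factors in edgeR, with other filters, the letter as a block, the compared groups alone, spike-in scaling without DTP_TSA a, omission of replicate a of both TSA groups, and each library left out in turn. RefSeq promoters and GENCODE 29 exons served for sequences and overlaps. Python 3.11.15 with matplotlib 3.10.9 drew the figures.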

Additional observations from a re-analysis of the deposited data

Results flagged for a closer look

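Of 31 members tested, 11 passed the threshold for a TSA effect of another size in persister than in parental cells, where 15.3% of all genes had a larger and 23.0% a smaller effect in persisters. The TSA libraries helped to choose the members, so the log2 values below are a description, and nothing about the members is read from the count, whose share is near that of all genes. The effect in DTP minus that in parental cells was 2.87 for TPPP, 1.87 for SCG2, 1.79 for SYT11, 1.72 for EFR3B, 1.56 for BSN, 0.77 for RCOR1 and 0.64 for STX1A, all larger in persisters. It was -0.45 for ENO2, -0.52 for UCHL1 and -0.83 for MAPT, all smaller in persisters. For CPLX2 it was 4.16, which rests on 5 reads over DTP_TSA and 1 over DTP. Without replicate a of both TSA groups the values of TPPP, SYT11, EFR3B and BSN were 2.65, 1.45, 1.54 and 1.23, and those of ENO2, UCHL1 and MAPT were -0.36, -0.33 and -0.67.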

How the results depend on the processing

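Of 94 calls of members in the 5 comparisons without TSA, 70 were kept in every alternative and 19 were lost when 1 library was left out. The number of members whose TSA effect differed between populations, 11, was 6 with spike-in scaling and 17 without replicate a of both TSA groups. Spike-in scaling reversed BSN (-0.21), MAP1B (-0.49), and REST (-0.80) in erlotinib_24h against carboplatin_72h, MAP1B (0.15) and RCOR1 (0.36) in carboplatin_72h and REST (-0.06) in erlotinib_24h, each against parental_DMSO, and RCOR1 (0.19) in DTP against erlotinib_24h; the cause was not tested. Called neuroendocrine genes with carboplatin, 2, numbered 5 with spike-in scaling and 1 to 2 with 1 library left out, the value being 1 without parental_DMSO b or carboplatin_72h a or c. In DTP_TSA against DTP, 1 was called, and 2 with DESeq2, with either other filter or with the compared groups alone, 3 with spike-in scaling or without replicate a of both TSA groups, and 1 to 3 with 1 library left out, where DTP_TSA a gave 3 and parental_TSA a gave 2. Called REST partners in DTP, 15, numbered 23 with the compared groups alone or without replicate a of both TSA groups and 9 with spike-in scaling; with TSA they were 9 in persisters and 8 in parental cells under that scaling, against 19 and 15. General vesicle fusion genes called under it were 11 in DTP, 13 in DTP_TSA and 13 in parental_TSA, against 17, 25 and 22.

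The letters a, b and c did not pair the samples: deviations of same-lettered libraries correlated at -0.0509 to 0.079, and in 0 of 15 pairs of groups did every library correlate best with its own letter. With the replicate block 21 members passed in DTP and 17 in erlotinib_24h, each against parental_DMSO. No share of all genes is given for the block, so nothing about the members is read from these 2 counts. Depth limits the 7 members that were not tested. DTP_TSA a had a read in 15124 genes, beside 21202 and 21239 in b and c, and it limits members above 1 CPM too. DPYSL3 was at 0 CPM in a, beside 2.27 and 2.08 CPM in b and c. SYT1 was at 0.688 CPM, beside 3.90 and 3.78 CPM, and VAMP2 at 7.70 CPM, beside 19.0 and 16.3 CPM. Other members, such as STMN4 and BSN, were higher in a than in b and c.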
